A study of Mus musculus with 7 samples.

Results

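The EGR and NR4A transcription factor genes, with Ier2 and Ier3, are a set of 8 immediate early genes, and all 8 were found among the 19752 genes measured in mouse splenic NK cells cultured with or without interleukin 2 (IL2). They were chosen by gene symbol (Egr1, Egr2, Egr3, Nr4a1, Nr4a2, Nr4a3, Ier2 and Ier3), with earlier results of these data known. Each was represented by 1 probe set that carried no other symbol. NK cells, lymphocytes that kill infected and transformed cells, had been enriched from the spleen of male C57BL/6 mice aged 6 weeks with an EasySep negative selection kit. Both groups were kept in culture for 8 h: 4 samples received IL2 at 250 U/ml (replicates 1 to 4), and 3 were left untreated (replicates 2 to 4). RNA from each sample was hybridised to 1 Affymetrix Mouse Gene 1.0 ST array, and the question, from the series title, was what IL2 does to NK cells in culture. No label ties the replicates to separate mice or cultures. The p-values therefore measure the spread between these arrays alone, which may be technical.

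Immediate early genes are transcribed within minutes of a stimulus from factors already present in the cell, and many of their transcripts decay quickly. EGR proteins are zinc finger factors that bind GC-rich DNA and are switched on through the MAP kinase pathway and serum response factor, which binds the CArG box. NR4A proteins are orphan nuclear receptors whose genes respond to calcium and cyclic AMP through CREB and MEF2 factors. In lymphocytes both families are best known as targets of antigen receptor and other ITAM-linked signals, while the IL2 receptor signals through JAK kinases and STAT5 and also through MAP kinases.

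Egr1 and Nr4a3 rose in the IL2 arrays, each to about 1.95 times its untreated level. The other EGR and NR4A genes also had higher means with IL2, by 1.35-fold to 1.73-fold, but did not pass the test. Ier2 and Ier3 had means within 3% of the untreated ones. Of the 8 genes, limma called 2 higher and 0 lower at a Benjamini-Hochberg adjusted p under 0.05, where 2.08% of all 19752 genes were higher and 0.901% lower. At an unadjusted p under 0.05, 5 of the 8 were higher and 0 lower, where 8.81% of all genes were higher and 4.67% lower. The median log2 difference was 0.67 over the 8 genes and -0.015 over all genes. After the arrays were quantile normalized again, 4 of the 8 were higher (Egr1, Egr2, Nr4a2 and Nr4a3) and 0 lower, where 694 of all genes were higher and 577 lower in place of 410 and 178.

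**Figure D1:**
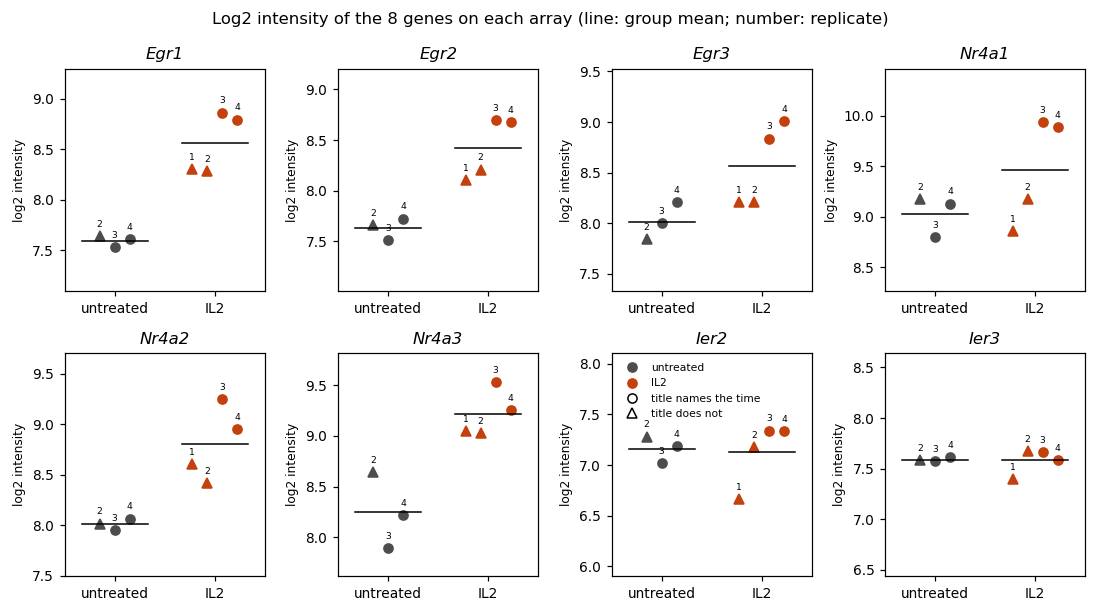
Log2 intensity of each of the 8 genes (vertical axes, each spanning the same width) on the 3 untreated and 4 IL2 arrays, with the replicate number over each point and a line at the group mean; circles are arrays whose titles name the time and triangles those whose titles do not. IL2 replicates 3 and 4 lie above IL2 replicates 1 and 2 for 7 of the 8 genes, and for Egr1, Egr2, Nr4a2 and Nr4a3 all 4 IL2 arrays lie above all 3 untreated ones.

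Egr1 encodes the founding member of the EGR family, a zinc finger activator induced by growth factors and receptor engagement. Its log2 intensity (probe set 10454782) was 7.64, 7.53 and 7.61 in untreated replicates 2, 3 and 4, and 8.30, 8.28, 8.86 and 8.79 in IL2 replicates 1 to 4. Every IL2 array was above every untreated array, and the untreated arrays lay close together. The mean went from 7.59 ± 0.06 (SD, n = 3) to 8.56 ± 0.31 (n = 4), a log2 difference of 0.97 (SE 0.16, limma adjusted p = 0.0224) and a fold of 1.95 with a 95% interval of 1.5 to 2.54. Leaving out any untreated array, or IL2 replicate 3 or 4, ended the call (limma adjusted p of 0.0655 to 0.104).

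Egr2, which restrains T cell activation and takes part in NKT cell development, had values (10363735) of 7.66, 7.51 and 7.72 untreated and 8.10, 8.21, 8.70 and 8.68 with IL2. The groups did not overlap. The log2 difference was 0.79 (SE 0.17, limma adjusted p = 0.0539), a fold of 1.73 with a 95% interval of 1.32 to 2.27, just outside the threshold. It passed in a fit with title style (whether an array's title names the time) as a block (0.84, limma adjusted p = 0.0222).

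Egr3, a close relative that acts with Egr2 in lymphocytes, had values (10416251) of 7.84, 8.00 and 8.21 untreated and 8.21, 8.21, 8.84 and 9.01 with IL2. Only IL2 replicates 3 and 4 were above the untreated arrays: IL2 replicates 1 and 2 and untreated replicate 4 held exactly the same deposited value. The log2 difference was 0.55 (SE 0.22, limma adjusted p = 0.334), a fold of 1.46 with a 95% interval of 1.02 to 2.09. With title style as a block it was 0.64 and passed the test (limma adjusted p = 0.0389).

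Nr4a1, also called Nur77, is widely used as a reporter of antigen receptor signalling. Its values (10427035) were 9.17, 8.80 and 9.13 untreated and 8.86, 9.17, 9.93 and 9.88 with IL2. IL2 replicates 1 and 2 lay within the untreated range, and replicates 3 and 4 lay above it. The log2 difference was 0.43 (SE 0.27, limma adjusted p = 0.604), and the 95% interval of the fold ran from 0.866 to 2.09, a range that holds both no change and a doubling.

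Nr4a2, or Nurr1, is the family member required for midbrain dopamine neurons and is also induced in activated lymphocytes. Its values (10482772) were 8.02, 7.95 and 8.07 untreated and 8.61, 8.42, 9.25 and 8.95 with IL2. All 4 IL2 arrays were above all 3 untreated ones. The log2 difference was 0.79 (SE 0.19, limma adjusted p = 0.0791), a fold of 1.73 with a 95% interval of 1.28 to 2.34.

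Nr4a3, or NOR1, has a DNA-binding domain much like those of its relatives. Its values (10504838) were 8.64, 7.89 and 8.22 untreated and 9.04, 9.03, 9.54 and 9.25 with IL2. The groups did not overlap, although the untreated arrays were more spread than for any other of the 8 genes. The mean went from 8.25 ± 0.37 (n = 3) to 9.22 ± 0.24 (n = 4), a log2 difference of 0.97 (SE 0.19, limma adjusted p = 0.0453) and a fold of 1.95 with a 95% interval of 1.43 to 2.67. The call held with 1 of the 7 arrays left out, untreated replicate 2 (1.16, limma adjusted p = 0.0325), and ended without any other array (0.0632 to 0.175). It also ended with title style as a block (0.0569) and with an offset before log2 (0.0527).

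Ier2 encodes a small nuclear protein induced by growth factors, and Ier3 (IEX-1) a regulator of cell survival. Ier2 (10580183) was at 7.28, 7.02 and 7.19 untreated and 6.66, 7.18, 7.34 and 7.34 with IL2, so that the IL2 arrays lay on both sides of the untreated ones. The log2 difference was -0.033 (SE 0.17, limma adjusted p = 0.967), with a 95% interval of the fold from 0.739 to 1.29. Ier3 (10444890) was at 7.58, 7.57 and 7.61 untreated and 7.40, 7.68, 7.66 and 7.58 with IL2. Its log2 difference was -0.0078 (SE 0.088, limma adjusted p = 0.986), and the interval of the fold, 0.863 to 1.15, was the narrowest of the 8. The sign of both differences changed with the processing, and with so few arrays these intervals leave room for modest changes.

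All 4 IL2 arrays lay above all 3 untreated arrays for 4 of the 8 genes (Egr1, Egr2, Nr4a2 and Nr4a3), as they did for 6.25% of all genes. The IL2 arrays lay entirely below for 0 of the 8 and for 3.38% of all genes. All 8 genes had a mean signal at or above the median of all genes, from the 54.7th percentile for Ier2 to the 90.2nd for Nr4a1. The differences of Egr1 and Nr4a3 stood 285th and 288th from the top among the 19752 genes.

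**Figure D2:**
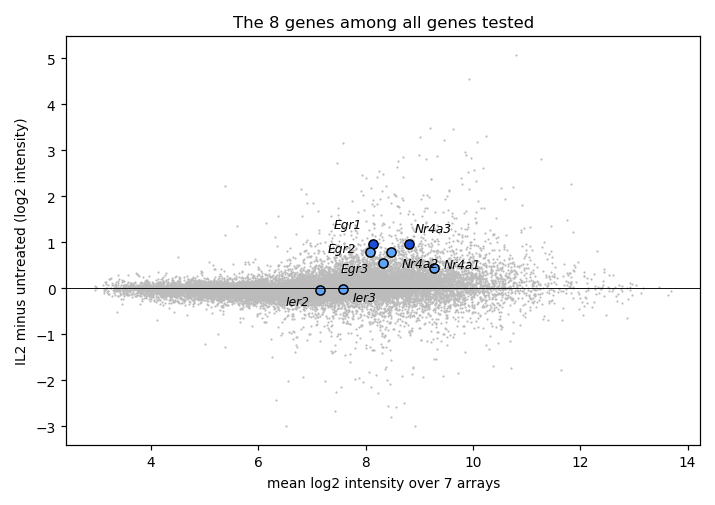
Difference between IL2 and untreated arrays (vertical axis, log2 intensity) against the mean log2 intensity over 7 arrays (horizontal axis) for all 19752 genes (grey), with the 8 genes named and those at an adjusted p under 0.05 in dark blue. Egr1 and Nr4a3 stand at 0.97, the other EGR and NR4A genes between 0.43 and 0.79, and Ier2 and Ier3 at about 0.

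Whether members of 1 family changed unequally was tested on the log2 ratio of 2 genes within each array, for 7 pairs, with an exact two-sided permutation test over the 35 ways to split the arrays (smallest possible p 0.0286). The ratio of Egr1 to Egr2 was higher with IL2 by 0.18 (exact permutation p = 0.0286, adjusted over the 7 pairs 0.2), with each group's SD at or under 0.07. The ratio of Egr1 to Egr3 was higher by 0.42 (exact permutation p = 0.0857, adjusted 0.2) and that of Egr2 to Egr3 by 0.24 (0.143, adjusted 0.2). The ratio of Nr4a1 to Nr4a3 was lower, at -0.54 (exact permutation p = 0.114, adjusted 0.2), as was that of Nr4a1 to Nr4a2, at -0.36 (0.114, adjusted 0.2). The ratios of Nr4a2 to Nr4a3 (-0.17, exact permutation p = 0.457, adjusted 0.533) and of Ier2 to Ier3 (-0.025, exact permutation p = 0.83, adjusted 0.83) differed less. None of the 7 passed after correction. With 7 arrays a pair could pass only if at least 5 of the 7 pairs reached the smallest possible p, so this outcome says little about whether members of a family responded unequally.

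The size of the differences went with title style. Replicates 3 and 4 of both groups carry titles that name the time, while replicates 1 and 2 do not, although a separate label gives 8 h for all 7 arrays. Within the 4 arrays whose titles name the time, the log2 differences were 1.26 for Egr1, 1.07 for Egr2, 0.82 for Egr3, 0.94 for Nr4a1, 1.09 for Nr4a2 and 1.34 for Nr4a3. Egr1 passed the test there (limma adjusted p = 0.0423), and the other 5 had adjusted p-values of 0.0662 to 0.0946. Within the other 3 arrays, where a single untreated array was assumed to vary as much as the others, the differences were 0.65, 0.50, 0.36, -0.16, 0.50 and 0.40 in the same order, and limma called 0 of them (adjusted p of 0.356 to 0.827, with 4 at an unadjusted p under 0.05, as were 13.3% of all genes in that fit). So 5 of the 6 kept their direction within both sets, and Nr4a1 did not.

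**Figure D3:**
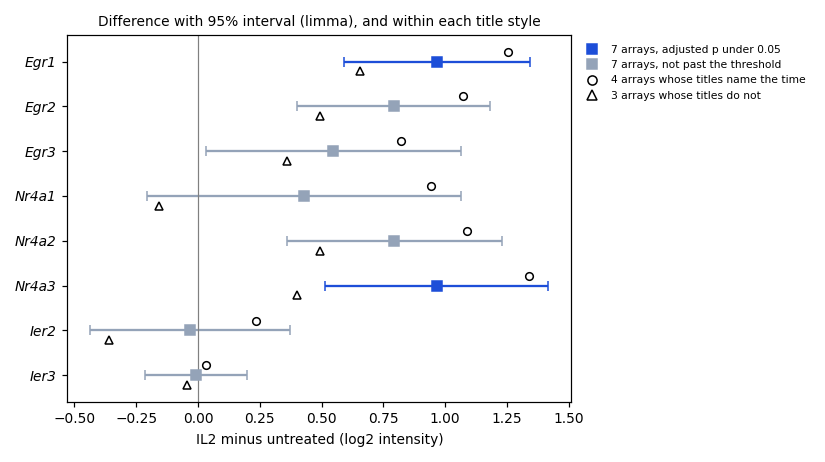
IL2 minus untreated (horizontal axis, log2 intensity) for each gene over 7 arrays (squares, with the 95% interval of limma's fit, dark blue where the adjusted p was under 0.05), within the 4 arrays whose titles name the time (circles) and within the 3 whose titles do not (triangles). For each gene the circle lies to the right of the triangle, by 1.10 for Nr4a1 and by 0.08 for Ier3.

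The gap between the 2 sets was tested as an interaction of treatment and title style, a fit added after the values had been seen. It was largest for Nr4a1, at 1.10 (SE 0.25, limma adjusted p = 0.386), followed by Nr4a3 at 0.94 (SE 0.24), Egr1 at 0.60 (SE 0.14) and Ier2 at 0.60 (SE 0.29). Of all 19752 genes 0 passed this test, with 2539 at an unadjusted p under 0.05, so the gap is a description of these arrays. Among the IL2 arrays, replicates 3 and 4 were both above replicates 1 and 2 for 7 of the 8 genes, against 36.1% of all genes and 49.5% of the genes called higher. The order was also frequent in the lists of related genes described further on: 76.9% of the lymphocyte genes linked to EGR2 or NR4A, 76% of the upstream inputs, 69.2% of the other immediate early genes and 66.7% of the feedback genes had it. The mean of IL2 replicates 3 and 4 exceeded that of 1 and 2 by 0.89 for Nr4a1, 0.72 for Egr3, 0.58 for Nr4a2, 0.54 for Egr2, 0.53 for Egr1 and 0.36 for Nr4a3. Among the untreated arrays the same gap was between -0.58 (Nr4a3) and 0.26 (Egr3).

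Markers of other cell types moved over the same arrays. T cell markers, which include the receptor gene Cd3e, summed to 3640 and 3753 in IL2 replicates 4 and 3 and to 2140 and 2329 in IL2 replicates 1 and 2, and all 12 of them (100%) were higher in both of the former than in both of the latter. In the untreated arrays the sum ran from 2438 in replicate 2 to 3794 in replicate 4. The same order was found for 11 of 14 neutrophil markers, 11 of 16 macrophage and monocyte markers, 6 of 11 dendritic cell markers, 4 of 11 B cell markers and 2 of 15 NK cell markers. Over all genes limma called 2.08% higher and 0.901% lower, the shares to set beside the counts of markers that follow. Markers of macrophages and monocytes summed to 14580 to 15090 untreated and 4406 to 6250 with IL2, 10 of 16 being lower and 0 higher by limma. The NK cell markers, which include the IL2-responsive Gzmb and Prf1, summed to 10770 to 16160 and 37100 to 43610, with 8 of 15 higher and 0 lower. Such a sum is weighted to the brightest genes, and 7 of the 15 were not called, among them Klrd1 (log2 difference 0.09) and Tyrobp (-0.14). The sums for neutrophils were 12960 to 17760 and 7767 to 11670, with 1 of 14 markers lower. For B cells they were 17560 to 20660 and 15230 to 16070, with 1 of 11 lower, and for dendritic cells 5568 to 6636 and 4398 to 5661, with 1 of 11 lower. In the untreated arrays, 12 of 16 macrophage and monocyte markers, 14 of 14 neutrophil, 11 of 11 B cell, 9 of 12 T cell and 8 of 11 dendritic cell markers had a signal at or above the median of all genes, as had 15 of 15 NK cell markers. The highest included Lyz2 of macrophages (99.9th percentile), Ngp of neutrophils and Cd79b of B cells (both 99.8th), and the highest NK cell marker was Tyrobp (99th). The lowest included Trat1 of T cells (5.93rd) and Mrc1 of macrophages (19.8th). Signals of different probe sets are not levels that can be compared. The part of these cells in the values of the 8 genes was not tested, and in such bulk RNA fewer cells of a type and less RNA per cell cannot be told apart.

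**Figure D4:**
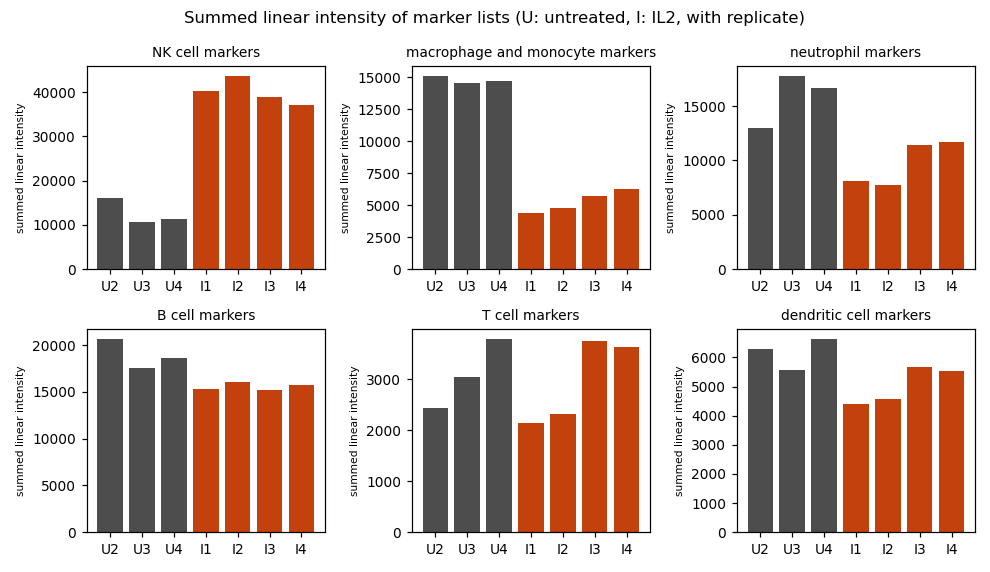
Summed linear intensity (vertical axes, from 0) of 6 lists of cell type markers on untreated (U, grey) and IL2 (I, orange) arrays, labelled with the replicate number. The sums for T cells, macrophages and monocytes, neutrophils and dendritic cells are higher in I3 and I4 than in I1 and I2, an order that 7 of the 8 immediate early genes also had, and macrophage and monocyte markers are lower in all 4 IL2 arrays than in the 3 untreated ones.

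The sequence before the transcription start is shown for Egr2 and the NR4A genes, which had higher means together, to set their promoter elements side by side. Promoters of Egr2, Nr4a1, Nr4a2, Nr4a3 and Ier3 were taken from the RefSeq promoter table (GRCm38.p6). Those of Egr1, Egr3 and Ier2 were not searched, so nothing is said here about their elements. The 250 bases before the start are given 5′ to 3′ on the gene's strand. Capitals mark TGACG or its complement CGTCA, the half-site of the cyclic AMP response element that CREB binds, the CArG box of Egr2 and the EGR element of Nr4a1.
Nr4a3, chr4:48045055-48045304, plus strand: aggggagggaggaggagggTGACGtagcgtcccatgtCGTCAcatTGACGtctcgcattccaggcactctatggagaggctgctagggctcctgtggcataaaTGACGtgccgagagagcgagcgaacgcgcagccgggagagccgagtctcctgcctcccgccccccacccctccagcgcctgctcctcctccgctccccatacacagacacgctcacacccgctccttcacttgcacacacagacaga
Nr4a1, chr15:101266596-101266845, plus strand: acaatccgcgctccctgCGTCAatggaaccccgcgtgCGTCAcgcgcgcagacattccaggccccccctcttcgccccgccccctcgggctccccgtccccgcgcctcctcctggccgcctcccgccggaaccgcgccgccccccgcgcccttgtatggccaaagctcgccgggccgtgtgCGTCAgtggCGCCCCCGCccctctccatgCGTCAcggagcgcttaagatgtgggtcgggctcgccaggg
Nr4a2, chr2:57124004-57124253, minus strand: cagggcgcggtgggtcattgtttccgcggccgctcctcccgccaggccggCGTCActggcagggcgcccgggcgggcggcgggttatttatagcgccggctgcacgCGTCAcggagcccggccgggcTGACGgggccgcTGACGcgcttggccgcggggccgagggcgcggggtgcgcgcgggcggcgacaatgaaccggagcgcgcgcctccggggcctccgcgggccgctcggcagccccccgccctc
Egr2, chr10:67537619-67537868, plus strand: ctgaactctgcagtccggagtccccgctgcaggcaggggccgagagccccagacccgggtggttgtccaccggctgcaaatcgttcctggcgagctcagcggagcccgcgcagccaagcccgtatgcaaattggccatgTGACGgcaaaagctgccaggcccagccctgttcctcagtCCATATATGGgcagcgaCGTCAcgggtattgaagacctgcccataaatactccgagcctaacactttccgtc

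Each NR4A promoter held 4 half-sites. Those of Nr4a3 began 231, 213, 205 and 147 bases before the start, those of Nr4a1 at 233, 213, 69 and 40, and those of Nr4a2 at 200, 144, 123 and 111. The start is that of the window's own transcript and need not be where the annotated gene begins. The gene span of Nr4a3 begins at 48045078, inside its window. The windows shown for Nr4a1 and Egr2 lie within the gene spans (101253902 to 101274795 and 67534469 to 67542188). The table holds 5 windows of Egr2, from different annotated starts: 3 overlapping ones held both half-sites and a CArG box, 1 held a CArG box and no half-site, and 1 held neither. The Egr2 window shown is 1 of the 3 with both and was picked after the matches were known. It held 2 half-sites, at 111 and 55 bases, on both sides of a CArG box at 72 bases. On either strand, 17.8% of the 32851 windows of this length that were searched held TGACG or CGTCA and 1.47% held a CArG box. The window of Ier3 held neither. An EGR element (GCGTGGGCG or GCGGGGGCG, in 3.06% of all windows) was found in that of Nr4a1, 60 bases before the start. The STAT-type element TTCNNNGAA (7.02% of windows), the full element TGACGTCA (1.55%) and the NR4A element AAAGGTCA (1.34%) had 0 matches in the 9 windows of these 5 genes. A match is a stretch of letters and not a measured site, and no match speaks only for this window.

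Other immediate early genes differed among themselves. Of 39 measured, 4 were higher and 1 lower by limma, beside 2.08% and 0.901% of all genes. At an unadjusted p under 0.05, 9 were higher and 4 lower, beside 8.81% and 4.67% of all genes. The median log2 difference was 0.0079, beside -0.015 over all genes. Myc, a driver of cell growth, rose by 2.14 (SE 0.19, limma adjusted p = 0.00153), the early activation marker gene Cd69 by 1.65 (SE 0.15) and the AP-1 subunit gene Jun by 1.30 (SE 0.15), and each of the 3 calls held with any 1 array left out. Nfkbiz, an atypical inhibitor of NF-kB named after its value was seen, rose by 0.71 (SE 0.15, limma adjusted p = 0.0489). Its call held under 5 of 11 alternatives that left no single array out. It ended with title style as a block (limma adjusted p = 0.0552), with eBayes with trend and robust (0.056) and with an offset of 16 (0.054), among others. The call also ended when any array but untreated replicate 2 or IL2 replicate 1 was left out (0.143 to 0.188). Rgs2, a regulator of G protein signalling, fell by 0.92 (SE 0.18, limma adjusted p = 0.0443), a call that ended without any 1 of the 7 arrays (0.0561 to 0.153). Further AP-1 family genes of the list were named after their values were seen, and none passed. Fos, Fosb and Junb had log2 differences of -0.26, 0.08 and -0.09 (limma adjusted p of 0.414 to 0.796), and Atf3 of -0.56 (0.372). Fosl2, Maff and Jund had differences of 0.56, 0.56 and 0.28 (limma adjusted p of 0.0592 to 0.566). For Fosl2 and Maff every IL2 array was above every untreated one.

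Of the upstream inputs of EGR and NR4A genes (MAP kinase cascade, serum response factor and its partners, CREB, MEF2, NFAT and calcineurin, and STAT factors), 25 of 33 were measured and limma called 0 either way, with 6 higher and 2 lower before adjustment (p under 0.05), or 8 of 25 beside 13.5% of all genes. Crem, a cyclic AMP-responsive factor, differed most, at 0.61 (SE 0.17, limma adjusted p = 0.128). The count of those higher was 2 without untreated replicate 2. The other 8 of the list were not analysed here.

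Feedback and partner genes of the 2 families moved both ways. Of 21 measured, 2 were higher and 2 lower by limma, beside 2.08% and 0.901% of all genes, with a median of 0.04. At an unadjusted p under 0.05, 6 were higher and 3 lower, beside 8.81% and 4.67% of all genes. The IL2 arrays lay entirely above the untreated ones for 6 of the 21 and entirely below for 3, beside 6.25% and 3.38% of all genes. Spred2, an inhibitor of Ras to MAP kinase signalling, rose by 1.42 (SE 0.15, limma adjusted p = 0.00374) and its functional relative Spry2 by 0.80 (SE 0.14, limma adjusted p = 0.0273). The ubiquitin ligase genes Rnf128 (GRAIL) and Dtx1, both linked to lymphocyte unresponsiveness, fell by 1.93 (SE 0.21, limma adjusted p = 0.00383) and 0.80 (SE 0.16, limma adjusted p = 0.0404). The calls of Spred2 and Rnf128 held with any 1 array left out. That of Spry2 ended when untreated replicate 3 or 4, or any IL2 array other than replicate 1, was left out (0.0949 to 0.119), and that of Dtx1 without the same 5 arrays (0.0751 to 0.146). The call of Dtx1 also ended with title style as a block (0.0509). The count of higher genes was 1 without each of these 5 arrays and 4 without IL2 replicate 1, and 1 gene in place of 2 was lower without untreated replicate 4 or IL2 replicate 2, 3 or 4.

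Of 26 measured lymphocyte genes that have been linked to EGR2 or NR4A factors, 6 were higher and 0 lower, with a median of 0.11. Over all genes 2.08% were higher and 0.901% lower. At an unadjusted p under 0.05, 8 of the 26 were higher and 2 lower, beside 8.81% and 4.67% of all genes. The largest rises were in the co-stimulatory receptor gene Tnfrsf9 (3.31, SE 0.14), the IL2 receptor alpha chain gene Il2ra (2.01, SE 0.20) and the death ligand gene Fasl (1.78, SE 0.27, limma adjusted p = 0.0162). The call of Fasl ended without each of the 5 arrays named for Spry2 (0.0503 to 0.0964). The list holds 5 inhibitory receptor genes, named here after their values were seen. Tigit rose by 1.21 (SE 0.17, limma adjusted p = 0.0131), a call that ended without untreated replicate 4 or IL2 replicate 2 or 3 (0.0584 to 0.0771). Lag3 (0.24), Ctla4 (0.22), Pdcd1 (-0.25) and Havcr2 (-0.27) did not pass (limma adjusted p of 0.366 to 0.738). Over the same arrays the median difference was -1.22 for the macrophage and monocyte markers and 1.40 for the NK cell markers.

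**Figure D5:**
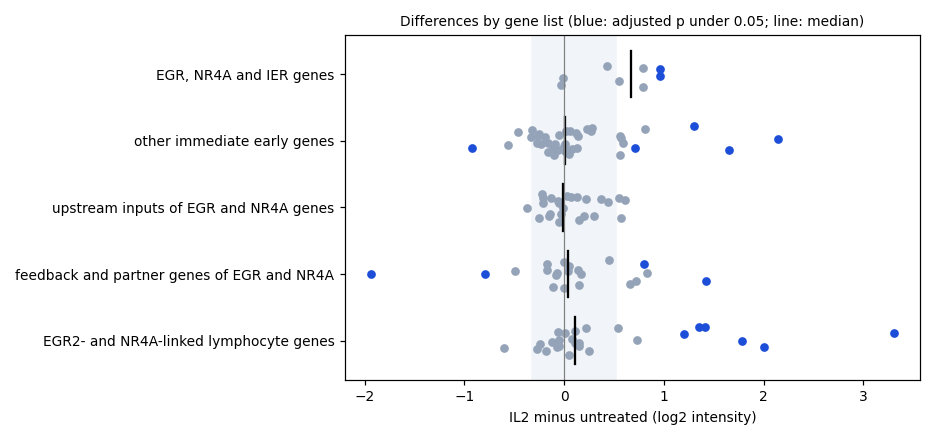
IL2 minus untreated (horizontal axis, log2 intensity) for each gene (points) of the 8 immediate early genes and of 4 lists of related genes, blue at an adjusted p under 0.05, with a line at each list's median and a shaded band from the 5th to the 95th percentile of all genes (-0.33 to 0.52). The 8 genes have a median of 0.67, and the medians of the lists lie between -0.01 and 0.11.

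The genes whose values over the 7 arrays were most like those of each member were looked up among 6649 genes (6650 for Ier3) with a signal at or above the median and a range of at least 0.5. With so many candidates and 7 arrays high correlations are easily found, and they are given as a description. For Egr1 they were Oas3 (Pearson's r = 0.995), Slc25a22 and Oasl1 (both 0.991), where Oas3 and Oasl1 belong to the interferon-induced oligoadenylate synthetase family. For Egr2 they were Ifi35 (0.994), Ola1 and Smyd5 (both 0.993), and for Egr3 Bcs1l (0.997), Slc29a1 and Mrpl30 (both 0.995). Those of Nr4a1 were Gpatch1 (0.996), Mrpl11 (0.994) and Vwa5a (0.993). Those of Nr4a2 were Slamf1 (0.993), a lymphocyte receptor gene, Slc25a22 (0.986) and Gpatch4 (0.982). For Nr4a3 they were Slfn10-ps (0.997), Tgs1 (0.996) and Pnpt1 (0.993). For Ier2 they were Cebpg (0.990), Tmem19 (0.985) and Dap3 (0.984), and for Ier3 Gnai3 (0.959), Wbp4 (0.902) and S100a6 (0.887). Slc25a22 was the 1 gene on more than 1 of these lists.

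The median intensity per array ran from 121 to 131. Pearson's r between arrays, taken over all probe sets, was at least 0.979 within a group and at least 0.966 between groups. At least 2 arrays held exactly equal values for 54.1% of the probe sets with 1 symbol, and so did 3 of the 8 genes: Egr3 on 3 arrays, and Nr4a1 and Ier3 on 2 each. Equal values within a group can lower its measured spread. Those of Egr3 were on IL2 replicates 1 and 2 and untreated replicate 4, and the SD of its 4 IL2 arrays was still 0.42. Those of Nr4a1 (untreated replicate 2 and IL2 replicate 2) and Ier3 (untreated replicate 2 and IL2 replicate 4) lay across the groups.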

How the data were processed

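The deposited values are linear intensities, 1 per probe set and array, summarised by the authors with RMA in Affymetrix Power Tools (named in the submitters' processing notes). Versions, settings and which arrays were normalized together are not given in the sources used here. Log2 was taken with no offset. Of 24922 probe sets, 21425 carried 1 gene symbol in the platform annotation, 1399 several and 2098 none. The brightest probe set was kept for each gene, giving 19752 genes, and no filter on signal was used. Intensity arrays carry no count of reads, so that the number of arrays limits the precision.

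IL2 and untreated arrays were compared with limma 3.58.1 in R 4.3.3 (lmFit, eBayes defaults, 1 factor, 7.68 degrees of freedom in total), with Benjamini-Hochberg adjustment over all 19752 genes and a threshold of 0.05. Errors given with ± are SDs over arrays. The fit was also tested on simulated data of the same size, with independent normal noise around each gene's mean. There it recovered 77% of genes changed by 1 and 97% of those changed by 2 on the log2 scale, and 5.43% of its calls were false. The simulated arrays had no shift with title style and no equal values between arrays, so these rates may not hold for the real ones.

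The 8 genes and all lists were chosen with earlier results of these data known. Named list genes were the called members with the largest difference, at most 3 in each direction, or the 1 with the largest difference where none was called. Genes most alike were the 3 with the highest Pearson's r for each member. Alternatives were the replicate number or title style as a block, each title style alone, quantile normalization again, median centring, eBayes with trend and robust (statmod 1.5.0), array quality weights, the mean of all probe sets of a gene, a filter at the median signal, an offset of 16 before log2, and each array left out. No array was left out of the main comparison.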

Additional observations from a re-analysis of the deposited data

How the results depend on the processing

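Of the 8 genes, 0 were lower under any alternative, and the log2 differences of Egr1, Egr2, Egr3, Nr4a2 and Nr4a3 were positive under all of them. The call of Egr1 held under 10 of 11 alternatives that left no single array out and that of Nr4a3 under 6. Among these 11, the mean of all probe sets left the values of the 8 genes as they were, since each had 1 probe set. In this paragraph a value after a gene is its log2 difference, the 4 lists are named in short, and causes were not tested. With title style as a block Egr2 (0.84), Egr3 (0.64) and Nr4a2 (0.85) passed and Nr4a3 (0.96) did not, so that 4 of the 8 were higher, Ier3 was at 0.0013 and 1 feedback gene was lower, Dtx1 having missed the threshold. After quantile normalization again Egr2 (0.72) and Nr4a2 (0.69) passed and 4 of the 8 were higher, with 8 other immediate early genes higher and 3 lower, 1 upstream gene higher and 3 lower, 4 feedback genes higher, 1 linked gene lower and the ratio of Ier2 to Ier3 at 0.023. With the filter at the median signal, which leaves 9876 genes to test, Egr2 (0.79) and Nr4a2 (0.79) passed, 4 of the 8 were higher, 1 feedback gene was lower and 1 linked gene lower. Of all genes tested, 5.85% were higher with that filter, 3.51% after quantile normalization again and 2.93% with title style as a block. The share was 2.08% in the main fit, 1.94% with an offset of 16 and 0.41% over the 4 arrays whose titles name the time. With arrays centred on the median Egr2 (0.82) passed and Ier3 was at 0.022. With array quality weights Ier2 was at 0.074 and Ier3 at 0.033, 0 other immediate early genes were lower, 1 upstream gene was higher and 4 feedback genes were higher. With an offset of 16 Nr4a3 (0.93) missed the threshold, 1 of the 8 was higher and 0 other immediate early genes were lower. Over the 4 arrays whose titles name the time Nr4a3 (1.34) missed it, Ier2 was at 0.24 and Ier3 at 0.033, 1 of the 8 was higher, 1 other immediate early gene was higher and 0 lower, and 0 feedback genes were called either way. Over the 3 other arrays, 0 genes were called in any list, with Egr1 at 0.65, Nr4a1 at -0.16 and Nr4a3 at 0.40. Of all genes limma called 0 there. With eBayes with trend and robust none of the calls of the 8 genes changed. None changed with the mean of all probe sets either, but each of the 8 had 1 probe set, so that setting could not alter their values.

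With each array left out in turn, the difference ran from 0.87 to 1.06 for Egr1, 0.70 to 0.90 for Egr2, 0.79 to 1.16 for Nr4a3, -0.10 to 0.12 for Ier2 and -0.039 to 0.052 for Ier3, and the ratio of Ier2 to Ier3 from -0.092 to 0.071. The count of the 8 higher ran from 0 (without replicate 3 or 4 of either group) to 2, where without IL2 replicate 1 the 2 were Egr1 and Egr2. The share of all genes higher ran from 0.678% (without IL2 replicate 2) to 2.62% (without IL2 replicate 1). Other immediate early genes lower were 0 throughout, upstream genes higher ran from 0 to 2, and feedback genes from 1 to 4 higher and from 1 to 2 lower.

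The check used had no set threshold and cannot settle whether the replicate numbers pair the arrays. The correlations of same-numbered deviations from the group means were 0.46, -0.30 and 0.31 for numbers 2, 3 and 4. Of the 6 arrays with a same-numbered array in the other group, 4 correlated best with their own number. With the replicate number as a block, Egr2 (0.90) passed, Nr4a3 (1.02) did not, Ier2 was at 0.12 and Ier3 at 0.052, 0 other immediate early genes were lower, 4 feedback genes were higher and 1 lower, and Dtx1, Rgs2 and Nfkbiz missed the threshold (limma adjusted p of 0.0583 to 0.0602). Fits on 6 or fewer arrays have fewer degrees of freedom.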
